A study of Mus musculus with 6 samples.

Results

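The p53 target genes examined here are a list of 30 genes, made of 29 reported targets of the transcription factor p53 and Trp53, the gene that encodes p53 itself. They were taken by gene symbol from a mouse array table, using the single row that the platform annotation assigns to each gene. A row of its own was found for 27 of the 30, among 19938 named genes in all. Trp53, Bax and Gdf15 were not analysed here, so the regulator itself is not measured below.

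RNA was measured on 6 Affymetrix arrays of the mouse embryonic stem cell line E14, in 2 groups of 3: control E14 and Tdg KD E14. The enzyme lowered, thymine DNA glycosylase, excises mismatched thymine and certain oxidised forms of methylcytosine, and so starts repair of the base. Both groups were kept on 0.1% gelatin in 15% serum with leukemia inhibitory factor at 1000 units/ml. Lentivirus was added at 10 infectious units per cell, and puromycin at 2 ug/ml followed 48 h later. The labels name neither the knockdown sequence nor the insert of the control vector, and the text on RNA extraction speaks of Kdm2b knockdown where the titles say Tdg. Whether the 3 arrays of a group represent 3 cultures is not said, and p-values therefore cover only the spread between these arrays, which may be technical.

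p53 binds DNA as a tetramer at a pair of similar half-sites and switches on genes that halt the cell cycle, trigger apoptosis, repair DNA and adjust metabolism. Its level is held down by Mdm2, a ubiquitin ligase that is itself a p53 target, which closes a negative feedback loop. In mouse embryonic stem cells p53 is abundant, and its activation is known to favour differentiation.

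The half-site consensus, a palindrome of 10 bases that reads the same on both strands, was searched without mismatches in RefSeq promoter windows of build GRCm38.p6. Each window holds 250 bases before and 50 after a transcription start. Windows were found for 20 of the 27 genes (not for Pmaip1, Rrm2b, Trp53inp1, Zmat3, Perp, Tnfrsf10b and Xpc), and 8 of these 20 (40%) held a half-site in at least 1 window, against 9.55% of all 27025 genes with a window. By window, the shares were 9 of 28 (32.1%) and 8.36% of all 32851. These are matches of letters only, and binding was not measured. The 8 half-sites are shown in capitals with 10 bases on each side, written 5′ to 3′ on the strand of the gene, because p53 is known to bind such letters.

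Mdm2, chr10:117710925-117710954, minus strand: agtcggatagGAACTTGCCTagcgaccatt
Ccng1, chr11:40755452-40755481, minus strand: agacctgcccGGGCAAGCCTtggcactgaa
Aen, chr7:78895927-78895956, plus strand: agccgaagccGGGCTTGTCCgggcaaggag
Gtse1, chr15:85859945-85859974, plus strand: gagcaagttgGGGCTTGCCTctgacttgcc
Ckap2, chr8:22186003-22186032, minus strand: ctgtgtctgaAGACATGTCCtgacttgtca
Polk, chr13:96519399-96519428, minus strand: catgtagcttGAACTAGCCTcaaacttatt
Sesn1, chr10:41887256-41887285, plus strand: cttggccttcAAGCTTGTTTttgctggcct
Ddit4l, chr3:137623572-137623601, plus strand: caactcccagGGGCTTGCCTgggcccctgc

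Pairs of half-sites, up to 13 bases apart and with at most 2 mismatches in all, were found in the windows of 4 of the 20 genes (20%), against 4.71% of all genes with a window. Among the other lists described below, other reported p53 targets held a half-site in 16% and a pair in 4% of 25 genes, G2 and mitosis genes in 20% and 13.3% of 15, and regulators and relatives of p53 in 9.52% and 4.76% of 21. The windows of the p53 target genes were also richer in CpG, with a median of 23 CpG dinucleotides against 7 over all windows. The other lists were above 7 as well, with medians of 24 for G2 and mitosis genes, 28 for regulators and relatives and 15 for other reported targets. The part of CpG content in these shares was not tested. The pairs are shown because a pair is what the p53 tetramer contacts, with both half-sites in capitals and 5 flanking bases.

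Ccng1, chr11:40755457-40755486, minus strand, 0 bases apart, 1 mismatch: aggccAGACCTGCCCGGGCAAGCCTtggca
Gtse1, chr15:85859940-85859969, plus strand, 0 bases apart, 1 mismatch: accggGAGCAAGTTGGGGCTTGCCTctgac
Ckap2, chr8:22185998-22186027, minus strand, 0 bases apart, 2 mismatches: tctgaAGACATGTCCTGACTTGTCAagcct
Sesn1, chr10:41887248-41887280, plus strand, 3 bases apart, 2 mismatches: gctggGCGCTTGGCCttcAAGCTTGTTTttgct

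The 8 genes with a half-site had a median log2 fold change, knockdown minus control, of -0.04 (range -0.23 to 0.16), and the 12 without one had the same median of -0.04 (range -0.30 to 0.19). In the 4 genes with a paired site the values were -0.06 for Ccng1, 0.01 for Gtse1, -0.06 for Ckap2 and -0.23 for Sesn1. The 7 genes with no window, among them Trp53inp1, Tnfrsf10b, Perp and Pmaip1, had a median of -0.17 with 7 of 7 below 0, so the comparison by half-site leaves out several of the members with the lowest values.

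The knockdown itself was clear in the arrays. Tdg signal, the mean of 4 rows that the annotation shares with the pseudogene Tdg-ps2, was 11.12, 11.20 and 11.10 (log2 signal) in the controls and 8.24, 8.16 and 7.93 in the knockdown arrays. It fell by 3.03 on the log2 scale (SE 0.09, limma adjusted p 8.79e-05), to 12.2% of control. An exact permutation test gave p = 0.1, the smallest that 3 against 3 arrays allow. Over all named genes limma called 158 at an adjusted p of at most 0.05, which is 0.792%: 48 higher (0.241%) and 110 lower (0.552%). Leaving out 1 array moved this total to 0 without control replicate 1 or 2 or knockdown replicate 1, to 4 without knockdown replicate 2, to 15 without control replicate 3 and to 291 without knockdown replicate 3. Knockdown replicate 3 stood apart from the other 5 arrays on the first principal component (31.0 against -17.5 to 5.2). The 9 embryonic stem cell markers had median signals of 12.56 to 12.68 in control and 12.54 to 12.62 in knockdown arrays, and 0 of the 9 passed the threshold.

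None of the 27 p53 target genes passed the threshold in either direction, where the whole table had 0.792% of genes called. Of the 27, 21 had a log2 fold change below 0 and 6 above, with a median of -0.06 against 0.02 over all genes, and 77.8% below 0 against 43.5% of all genes. At an unadjusted p under 0.05, limma had 6 members lower (22.2%, background 7.48%) and 1 higher (3.7%, background 5.03%). The groups did not overlap in 7 members on the lower side (25.9%, background 11.0%) and 3 on the higher side (11.1%, background 7.98%). With the replicate number as a block, 1 member was lower (3.7%, background 2.01%) and 0 were higher (background 1.07%). On the lower side the shares by unadjusted p and by non-overlap were above the background, and the share by adjusted p was 0. The background was not matched for signal: 26 of the 27 members lay above the array median on every array. Without the third of all rows lowest in mean, the median over all genes was -0.0033, against -0.0767 for the 26 members left. Settings without the block also called members. Without the dimmest rows Trp53inp1 was called (1 of 26 members, against 351 of 14800 genes). It was also called with a trended and robust prior (1 of 27 members, against 446 of 19938 genes). Array weights called 7 of 27 members, against 1633 of 19938 genes. In bulk RNA of this kind, fewer cells of a type and less RNA per cell cannot be told apart.

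The intervals were narrow on these arrays. They cover only the spread between the 3 arrays of a group, which may be technical, and so do not bound the change in other cultures. The standard errors of the 27 genes ran from 0.06 to 0.10, and their 95% confidence intervals, taken gene by gene, all lay between -0.48 and 0.36. No interval reached a change of more than 1.39-fold in either direction. The smallest change called anywhere in the table was 0.37 in size, and the largest among the members was 0.31. Their spread was low: the median SD over 3 arrays was 0.04 in control and 0.09 in knockdown, against 0.08 and 0.12 over all genes. The values over all genes include many dimmer rows, whereas 26 of the 27 members lay above the array median on every array. Spread was not compared at equal signal.

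**Figure D1:**
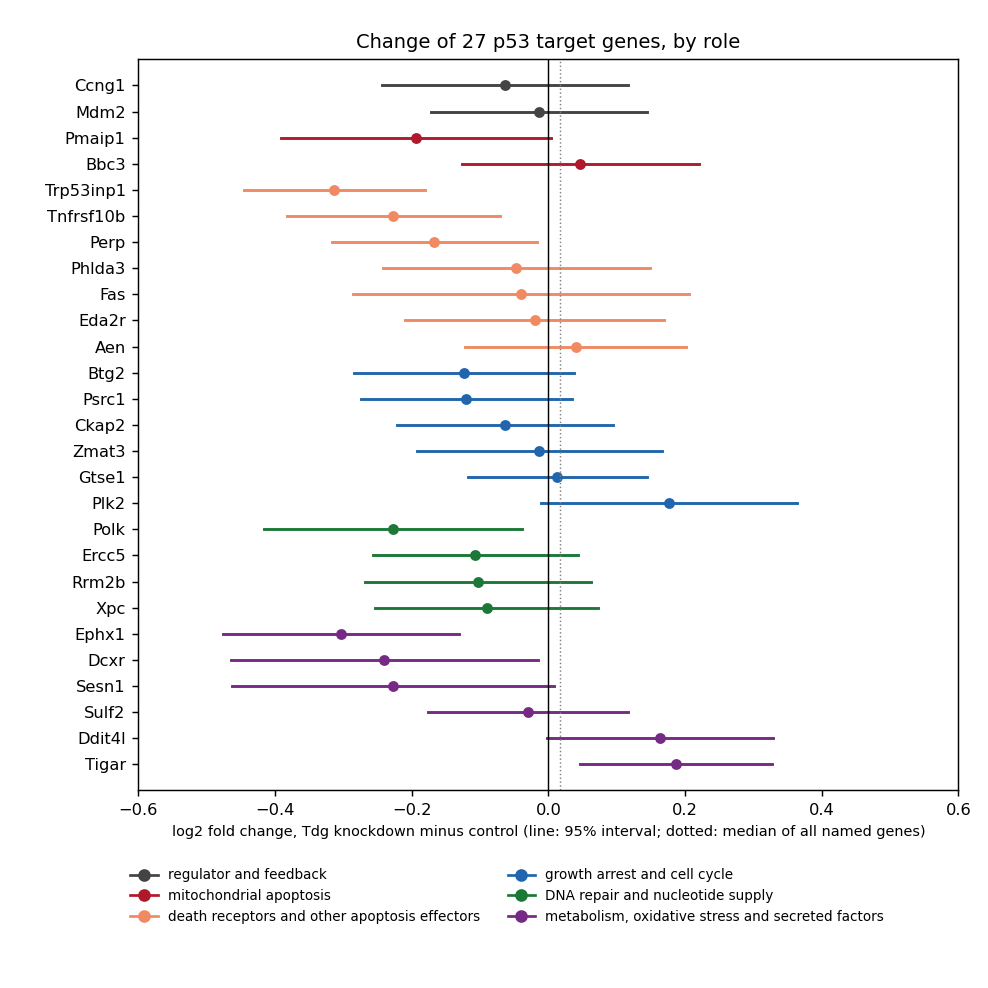
Log2 fold change, Tdg knockdown minus control, of 27 p53 target genes grouped by role (points), with 95% confidence intervals from limma (lines; n = 3 arrays a group). The dotted line marks the median of all named genes at 0.02; 21 points lie below 0, and all intervals lie between -0.48 and 0.36.

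The feedback genes were close to their control levels. Mdm2, the ligase that degrades p53, had signals of 11.86, 11.84 and 11.83 in control and 11.88, 11.88 and 11.73 in knockdown arrays. Its log2 fold change was -0.01, with an interval of -0.17 to 0.14 (adjusted p 0.960), and only knockdown replicate 3 lay below the controls. Ccng1, cyclin G1, which acts in the same feedback with a phosphatase, had 12.91, 12.87 and 12.74 in control against 12.84, 12.81 and 12.68. The groups overlapped, and the log2 fold change was -0.06 (interval -0.24 to 0.12, adjusted p 0.806). The array listed as replicate 3 was the lowest of its group for both genes, in control and in knockdown.

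Of the genes for apoptosis at the mitochondrion, Bbc3 encodes PUMA and Pmaip1 encodes NOXA, both activators of cell death through the BCL2 family. Bbc3 had 8.69, 8.86 and 8.84 in control and 8.77, 8.89 and 8.87 in knockdown arrays, which overlap (log2 fold change 0.05, interval -0.13 to 0.22, adjusted p 0.851). Pmaip1 had 8.39, 8.45 and 8.54 in control and 8.21, 8.41 and 8.18 in knockdown arrays. Its log2 fold change was -0.19 (interval -0.39 to 0.00, adjusted p 0.414), and only knockdown replicate 2 reached the control range.

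The difference with the smallest p was that of Trp53inp1, which encodes a nuclear and autophagy protein that promotes p53-dependent cell death. Its signals were 12.48, 12.49 and 12.47 in control and 12.19, 12.16 and 12.15 in knockdown arrays. The groups were far apart relative to their SDs of 0.01 and 0.02. The log2 fold change was -0.31 (SE 0.06, interval -0.45 to -0.18), or 80.5% of control, with a limma adjusted p of 0.065. It passed with the replicate block (adjusted p 0.0403), also where the dimmest rows (the third of all rows lowest in mean) were left out (0.0302) and with a trended and robust prior (0.00191). Leaving out any 1 array kept the value between -0.33 and -0.31, with adjusted p from 0.0616 to 0.364.

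Among the other apoptosis genes, Tnfrsf10b encodes the mouse death receptor for TRAIL. It had 10.94, 10.98 and 10.93 in control and 10.76, 10.78 and 10.63 in knockdown arrays, with no overlap (log2 fold change -0.23, SE 0.07, adjusted p 0.207). Perp, a membrane protein of desmosomes with a part in apoptosis, had 10.98, 11.04 and 10.98 against 10.86, 10.88 and 10.76. These groups did not overlap either (-0.17, SE 0.06, adjusted p 0.344). For both genes knockdown replicate 3 was the lowest array, and both fold changes without it were smaller in size, at -0.18 and -0.13.

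Fas, the death receptor for FAS ligand, was the dimmest of these rows and the 1 member among the third of all rows lowest in mean. It had 5.85, 5.86 and 5.93 in control and 5.75, 5.70 and 6.07 in knockdown arrays. Knockdown replicate 3 was the highest of all 6 and the other 2 knockdown arrays were the lowest, so the log2 fold change of -0.04 (interval -0.29 to 0.21) averages opposite values. The value was -0.16 without that array. No background signal was read for this row, and the share of Fas RNA in its signal is not known. Phlda3, a pleckstrin homology protein that restrains AKT, showed -0.05. Eda2r, the receptor for ectodysplasin A2, showed -0.02, and Aen, an apoptosis-enhancing nuclease, 0.04. All 3 had overlapping groups.

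**Figure D2:**
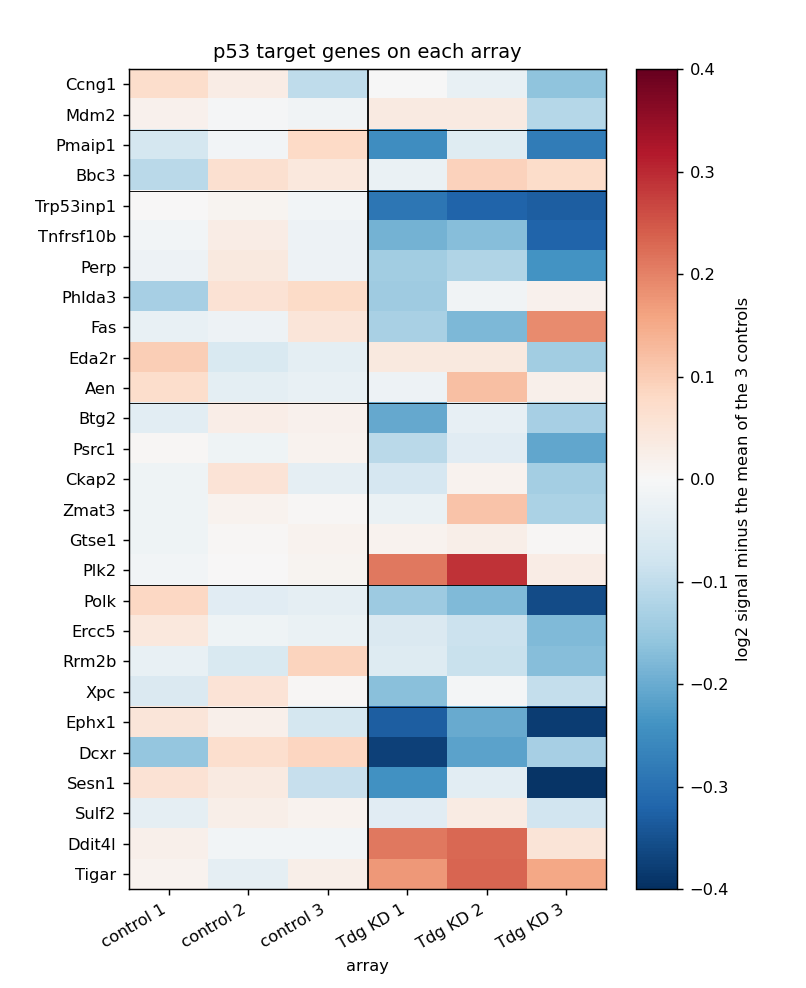
Deviation of each p53 target gene on each array from the mean of the 3 controls (colour, log2 units; blue lower, red higher), with thin lines between roles. Trp53inp1, Tnfrsf10b, Perp, Polk, Ephx1, Ercc5 and Psrc1 are lower on all 3 knockdown arrays than on any control, and Plk2, Tigar and Ddit4l are higher.

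The growth arrest and cell cycle genes split. Plk2, a polo-like kinase induced by stress, had 10.04, 10.05 and 10.06 in control against 10.26, 10.34 and 10.08 in knockdown arrays, without overlap. Its log2 fold change was 0.18 (interval -0.01 to 0.36, adjusted p 0.432), and knockdown replicate 3 exceeded the highest control by little. Btg2, an antiproliferative adaptor of mRNA deadenylation, showed -0.12. Psrc1, a spindle microtubule protein, also showed -0.12, with knockdown values of 12.01, 12.07 and 11.91 below controls of 12.12, 12.10 and 12.13. Ckap2, another spindle protein, showed -0.06, Zmat3, an RNA-binding zinc finger protein, -0.01, and Gtse1, a microtubule protein that restrains p53, 0.01. Adjusted p for these 6 genes ran from 0.432 to 0.966. Gtse1 was the tightest, between 11.67 and 11.71 on all 6 arrays.

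All 4 genes of DNA repair and nucleotide supply had values below 0, from -0.23 to -0.09, with a median of -0.11. Polk, a translesion DNA polymerase, had 10.05, 9.92 and 9.93 in control and 9.82, 9.79 and 9.61 in knockdown arrays, with no overlap (log2 fold change -0.23, SE 0.08, adjusted p 0.303). Without knockdown replicate 3, the lowest array, it was -0.16. Ercc5, the endonuclease XPG of nucleotide excision repair, showed -0.11, also without overlap (10.11, 10.05 and 10.04 against 10.01, 9.98 and 9.89). Rrm2b, a p53-induced subunit of ribonucleotide reductase, showed -0.10, and Xpc, which recognises damaged DNA, -0.09. The last pair overlapped between groups.

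Genes of metabolism and oxidative stress held the widest range, from -0.30 to 0.19. Ephx1, a microsomal epoxide hydrolase of detoxification, had 10.28, 10.25 and 10.16 in control and 9.90, 10.03 and 9.85 in knockdown arrays. The groups did not overlap, and the log2 fold change was -0.30 (SE 0.07, interval -0.48 to -0.13), or 81.0% of control (adjusted p 0.132, with the block 0.0549). Dcxr, a dicarbonyl and xylulose reductase, had 9.71, 9.93 and 9.95 in control and 9.49, 9.65 and 9.73 in knockdown arrays. Its log2 fold change was -0.24 (SE 0.10, adjusted p 0.367), and the groups overlapped because control replicate 1 was low. Each knockdown array was lower than the control of the same number by 0.22, 0.28 and 0.22.

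Sesn1, a sestrin that restrains mTORC1 and counters oxidative stress, had 9.40, 9.38 and 9.25 in control and 9.10, 9.30 and 8.95 in knockdown arrays. Its log2 fold change was -0.23 (SE 0.10, adjusted p 0.421), and knockdown replicate 2 lay within the control range. Sulf2, an extracellular heparan sulfate sulfatase, showed -0.03. Tigar and Ddit4l were on the other side. Tigar, a phosphatase that lowers glycolytic flux, had 10.09, 10.04 and 10.10 in control and 10.25, 10.31 and 10.23 in knockdown arrays (log2 fold change 0.19, SE 0.06, adjusted p 0.248). Ddit4l, an inhibitor of mTORC1 signalling, had 9.78, 9.75 and 9.75 against 9.97, 9.99 and 9.81 (0.16, SE 0.07, adjusted p 0.408). Neither gene's groups overlapped, and no gene of this role passed the threshold with or without the block.

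**Figure D3:**
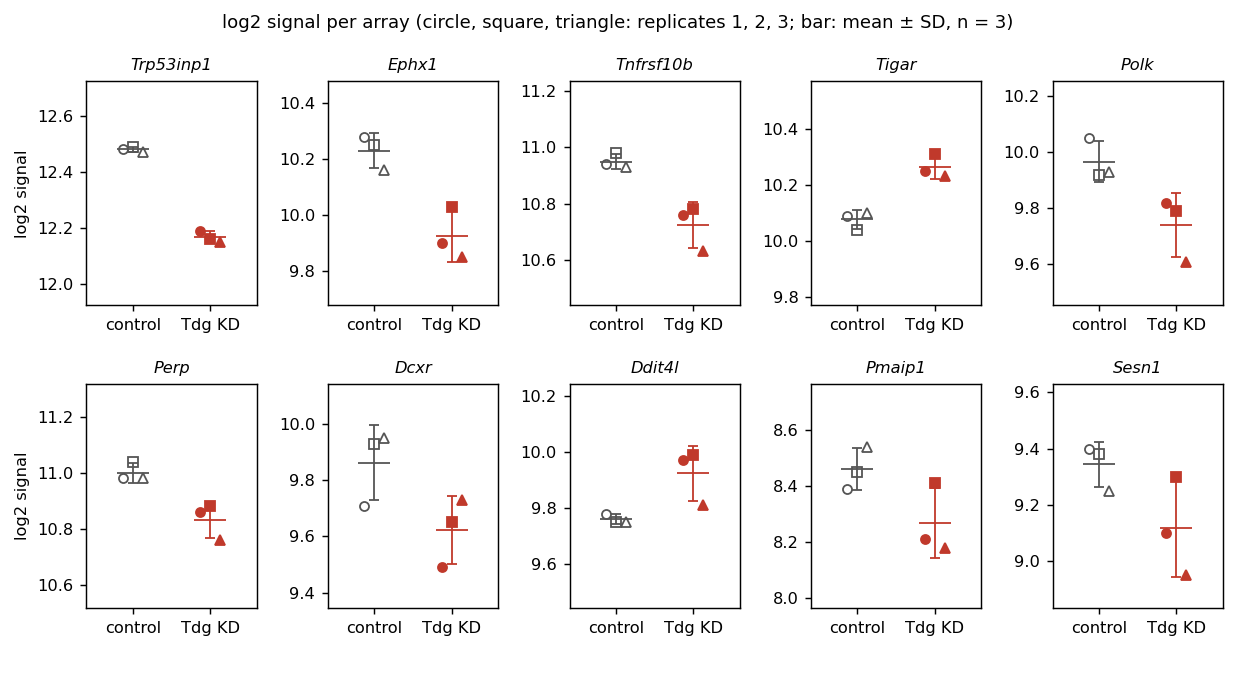
Log2 signal on every array for the 10 members with the smallest unadjusted p, with the mean and SD of each group (n = 3); each panel spans 0.8 log2 units. The knockdown arrays lie below the controls for Trp53inp1, Ephx1, Tnfrsf10b, Polk and Perp and above them for Tigar and Ddit4l, and the groups overlap for Dcxr, Pmaip1 and Sesn1.

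Taken array by array, 20, 16 and 19 of the 27 genes lay below the control mean in knockdown replicates 1, 2 and 3, with median deviations of -0.07, -0.03 and -0.13. Over all genes the medians on these arrays were 0.00, 0.00 and 0.03, with 50.9%, 49.3% and 45.7% of genes below. The 3 controls had 15, 11 and 13 members below their mean, with medians of -0.01, 0.01 and 0.00. Knockdown replicate 3 thus had the lowest median of the members. Without it the members' median fold change was -0.07, with 18 of 27 below 0. Over the 6 leave-one-out fits the median ran from -0.05 to -0.10, the last without knockdown replicate 2.

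Mdm2, Zmat3 and Eda2r took the opposite sign without knockdown replicate 3. Fas did so without knockdown replicate 1 or 2, Phlda3 without knockdown replicate 1, and Bbc3 and Eda2r without control replicate 1. None of these 6 genes lay further than 0.05 from 0 with all arrays. Quantile normalization turned the sign of Zmat3, and array weights those of Mdm2, Bbc3 and Eda2r. Quantile normalization and median centring of the arrays left the members' median at -0.06 and -0.07.

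Other reported p53 targets, a second list of 30 genes of which 27 had a row of their own, had a median of the same sign. The median log2 fold change was -0.10, with 17 of 27 below 0. Of these, 1 fell and 0 rose, against backgrounds of 0.552% and 0.241%. The gene was Sfn, which encodes the 14-3-3 sigma protein of the cell cycle checkpoint and is also a keratinocyte gene. Its signals were 11.22, 11.46 and 11.30 in control and 10.61, 10.84 and 10.74 in knockdown arrays. It fell by 0.60 on the log2 scale (SE 0.09, adjusted p 0.0442, with the block 0.0126). The call was lost without control replicates 1, 2 or 3 or knockdown replicates 1 or 2 (adjusted p 0.0921 to 0.229), at values of -0.53 to -0.65.

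The next smallest p in that list were those of Tap1, a peptide transporter of antigen presentation (-0.35, adjusted p 0.106), and Epha2, an ephrin receptor (-0.26, 0.127). With the block, the metalloreductase gene Steap3 was also lower (-0.29, adjusted p 0.0491). In the same fit the cytokine gene Lif (0.30, adjusted p 0.0441) and the drug transporter gene Abcb1a (0.32, 0.0493) were higher. Lif encodes the factor that both groups received in the medium. Without overlap between groups, 10 of the 27 were lower and 5 higher, against 11.0% and 7.98% of all genes. Tap1 and Epha2 did not pass with the block either (adjusted p 0.0518 and 0.0783).

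Among 24 measured regulators and relatives of p53, out of 25 listed, none passed the threshold and the median was -0.02. Hipk2, a kinase that phosphorylates p53, had the smallest p. It had 9.80, 9.75 and 9.80 in control and 10.17, 10.15 and 10.04 in knockdown arrays, with no overlap. The log2 fold change was 0.34 (SE 0.06, adjusted p 0.077), and it passed with the block (0.0453) or without knockdown replicate 3 (0.0368). Next came Chek1, a checkpoint kinase (-0.13, adjusted p 0.652), and Cdkn2a, which encodes the Mdm2 inhibitor ARF (0.11, 0.659). Without knockdown replicate 3 the median of this list was 0.05.

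The 19 measured genes of G2 and mitosis, which p53 is known to lower through the cell cycle inhibitor p21, had a median of -0.05 with none past the threshold. The smallest p belonged to Prc1, a midzone microtubule protein (-0.23, adjusted p 0.207), Bub1, a spindle checkpoint kinase (-0.19, 0.446), and Ccnb2, a mitotic cyclin (-0.09, 0.609). Without knockdown replicate 3 the median of the list was 0.00.

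**Figure D4:**
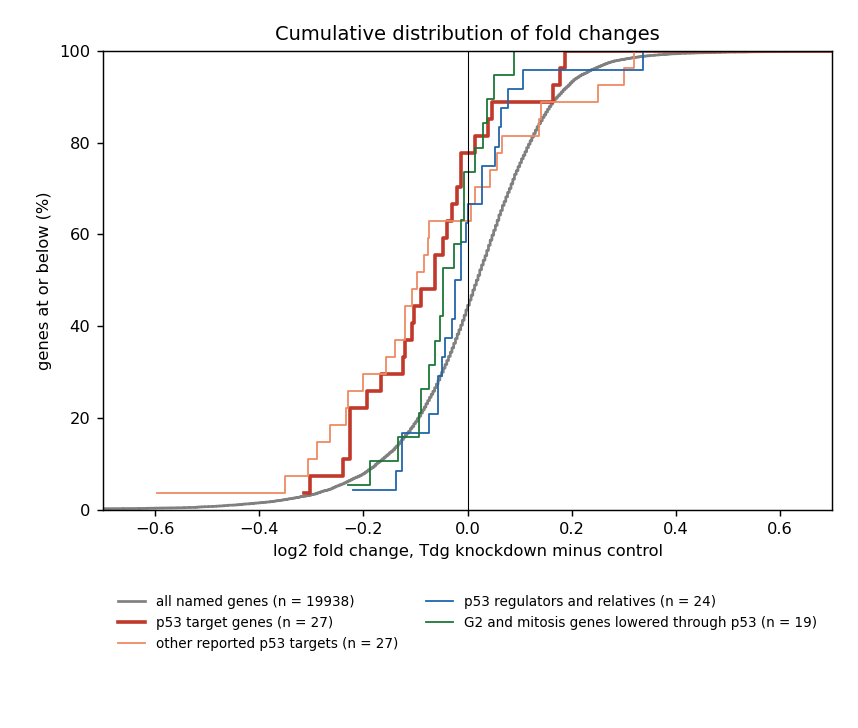
Cumulative share of genes (y axis, %) at or below each log2 fold change, knockdown minus control (x axis), for all named genes and for 4 lists. The p53 target genes (red, median -0.06) and the other reported targets (orange, median -0.10) run left of all genes (grey, median 0.02) over most of the range, and the regulators have a median of -0.02.

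Markers of other cell types were read on the same arrays. The 7 fibroblast markers had list medians of 7.44 to 7.75 in control and 7.48 to 8.08 in knockdown arrays, and none passed (lowest adjusted p among Lum, Dcn and Postn 0.743). The 5 primitive endoderm markers had medians of 6.71 to 7.11 and 6.81 to 7.17, with the smallest p for Sox17, Gata6 and Sox7 (0.65, 0.755 and 0.79 after adjustment). Of the 5 neural markers Pax6 rose (0.93, adjusted p 0.0145, at most 0.106 with 1 array left out), while Nes showed -0.60 (0.0845, blocked 0.0246) and Tubb3 0.36 (0.124, blocked 0.0423). Neurod1 showed -0.48 without overlap between groups (0.195, blocked 0.0572), and Sox1 showed 0.06 (0.84). The medians of the neural list were 8.67 to 8.83 in control and 8.87 to 9.16 in knockdown arrays. Values in the whole table ran down to 2.26, and array medians were 7.41 to 7.48. Which of these markers had signal near background cannot be told from the values. The stem cell markers with the smallest p were Klf4 (0.09), Sox2 (-0.10) and Zfp42 (0.10), with adjusted p of 0.651 to 0.707. The part of other cells in the values of the p53 target genes was not tested.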

How the data were processed

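The authors deposited log2 signals, 1 per probe set and array, between 2.26 and 14.03, per the range of the values. The submitters' processing notes name Affymetrix Expression Console. Its version and the summarisation and normalization used are not given in the sources at hand. Of 35557 rows, 21789 list 1 gene, 1621 several and 12147 none. For each gene the row with the highest mean was taken; no p53 target gene had more than 1 row. Gene names were updated through the RefSeq table of GRCm38.p6.

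Knockdown was compared with control across all 19938 named genes with limma 3.58.1 in R 4.3.3 (lmFit, eBayes, two-sided), with Benjamini-Hochberg adjustment over these genes and a threshold of 0.05. Confidence intervals are at 95% and not adjusted. Members and lists were chosen with earlier results of these data known, so no list was tested as a set. Values were printed for every member, with each array for the 10 members with the smallest p and for Mdm2, Ccng1, Bbc3, Pmaip1 and Fas. For other members, arrays were printed where groups did not overlap. From other lists, genes past the threshold and the 3 with the smallest p were named. Steap3, Lif, Abcb1a, Neurod1 and Sox1 were added after their values were seen. The script was tested on simulated data.

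Equal replicate numbers were checked for pairing: deviations from group means correlated at 0.61, 0.23 and 0.70 for numbers 1, 2 and 3, each over the criterion of 0.1. Control replicate 1 and knockdown replicate 2, which differ in number, correlated at 0.44, above the 0.23 of number 2. No label states what equal numbers share, and all values are from the fit without the replicate block unless the block is named. The other settings were quantile normalization, median centring, array weights, a prior that was trended and robust, and averaging the rows of a gene. Further ones were fitting and adjusting over all rows, leaving out the third of rows lowest in mean, and a fold of at least 1.2. The last were leaving out each array and leaving out both arrays numbered 3.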

Additional observations from a re-analysis of the deposited data

How the results depend on the processing

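Of 19938 named genes, 158 were called in the main fit and 614 with the replicate block. A trended and robust prior called 446 of them, array weights 1633, and testing all rows 12. Without the dimmest rows (the third of all rows lowest in mean), 351 of 14800 genes were called. Leaving out 1 array gave 0 (control replicates 1 and 2, knockdown replicate 1) to 291 (knockdown replicate 3), with 15 without control replicate 3 and 4 without knockdown replicate 2. Where limma called 0, 1682, 1510 and 1958 genes had an unadjusted p under 0.05. None of the p53 target genes was called in the main fit, in 6 of 6 leave-one-out fits, or under the scaling alternatives. With the replicate block, without the dimmest rows and with the trended prior 1 was called, each time Trp53inp1, and with array weights 7 were: Trp53inp1, Ephx1, Tnfrsf10b and Dcxr lower, Tigar, Plk2 and Ddit4l higher. The array weights were estimated gene by gene from 6 arrays. The block changed no other call among the 27. The members' median of -0.06 became -0.0767 without the dimmest rows and -0.0786 with array weights, and -0.10 to -0.05 in leave-one-out fits. Over all genes the median was 0.02 in the main fit, -0.0033 without the dimmest rows and 8e-04 with array weights. With 3 arrays a group, the number of arrays limits the precision, and rows with signal near background cannot be recognised in these values.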

Other observations

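Cdkn1a, the p21 gene and a central p53 target, has no row of its own here. The 1 row that lists it together with another gene had signals of 11.54, 11.54 and 11.60 in control and 11.53, 11.59 and 11.54 in knockdown arrays. The difference was -0.01 (SE 0.06, 95% interval -0.15 to 0.13, limma adjusted p 0.979, with the replicate block 0.955). Which of the genes this signal comes from cannot be told from the row. This row was chosen after the other results were seen.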
